A study of Homo sapiens with 8 samples.

Results

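The HOX genes are 39 of the 58870 genes in the count table of this study. They were chosen by symbol, as every gene named HOXA, HOXB, HOXC or HOXD followed by a number, so that antisense and other non-coding transcripts of the clusters were left out. The HOXA cluster on chromosome 7 gave 11 members, HOXB on chromosome 17 gave 10, and HOXC on chromosome 12 and HOXD on chromosome 2 gave 9 each. RNA sequencing was done on CFPAC-1, an established line from a human pancreatic ductal adenocarcinoma, in cultures with serum and without drug treatment. Libraries came from 4 samples with an empty vector and 4 samples with an ADRA2A transgene, which codes for the alpha-2A adrenergic receptor. Both groups therefore carried a vector, and they differed in the transgene. The promoter of the transgene, and whether each group came from a single clone, a single transduction or separate cultures, are not given in the sources used here, so p-values measure only the spread between these samples, which may be technical.

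HOX genes encode homeodomain transcription factors that give cells a position along the head-to-tail axis of the embryo. They lie in 4 clusters, and genes at the same place in different clusters, such as HOXA9 and HOXB9, share a number and are called paralogues. Low numbers are used towards the head and high numbers towards the tail, and many adult epithelia and tumour lines keep part of this pattern. HOX proteins bind DNA together with PBX and MEIS cofactors. Trithorax complexes such as KMT2A with menin keep the clusters active, Polycomb complexes keep them silent, and retinoic acid switches on the genes at the head end.

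ADRA2A, the check of the labels, had 0 counts in all 4 empty-vector libraries and between 112 and 172 in the ADRA2A libraries. Library totals lay between 14427035 and 17528915 counts. Of 10 ductal epithelium markers, 9 were abundant enough to test (4 higher, 4 lower). By the test described below, 88.9% of them were called, against 42.7% of all genes tested, so most single markers differed between the groups. The list summed to between 12214 and 12791 CPM (counts scaled to library size) in the empty-vector libraries and between 12153 and 13209 CPM in the ADRA2A libraries. CFTR, a defining duct gene, had between 4 and 20 counts, too few to be tested. Markers of other cell types were checked as well. CD3E of T cells and TEK of endothelium were at 0 in all 8 libraries, COL3A1 of fibroblasts had at most 1 count, and PTPRC of leukocytes had at most 4. The summed fibroblast list, which was mostly COL1A1, lay between 78.2 and 82.6 CPM with the empty vector and between 24.0 and 26.4 CPM with ADRA2A. Of its 8 genes 2 were tested (0 higher, 1 lower, 50% called). The summed leukocyte list, mostly HLA-DRA, CD68 and LYZ, lay between 241 and 256 CPM and between 379 and 401 CPM. Of its 7 genes 4 were tested (3 higher, 0 lower, 75% called). The summed endothelial list lay between 2.05 and 2.71 CPM and between 2.64 and 3.35 CPM, with 2 of 5 tested (1 higher, 1 lower, 100% called). PECAM1, the higher gene, passed the filter mainly through the ADRA2A libraries, and KDR, the lower gene, mainly through the empty-vector libraries. This share therefore depends on the filter. The part of all these marker genes in the HOX results was not tested. In bulk RNA, fewer cells of a type and less RNA per cell cannot be told apart.

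Promoter windows of 300 bases around the transcription start were taken from RefSeq (GRCh38.p14), where 20 of the 39 members matched, with 27 windows. Several of these belong to HOXA3, and 26 are distinct. Members without a window included HOXA5, HOXD9, every HOXC gene except HOXC4 and HOXC5, and every HOXB gene except HOXB1. The shares of windows below do not describe members without a window. The windows of 4 genes that were higher in the ADRA2A cells are shown, because they hold the start that HOXC4 and HOXC5 share in RefSeq and those of the HOXA genes at positions 10 and 13. HOXC4 and HOXC5 have the same window, chr12:54016638-54016937 on the plus strand. In the gene models used below, HOXC4 starts at 54016931, inside this window, but HOXC5 starts at 54033050, outside it. The window of HOXA13 is chr7:27200042-27200341 and that of the upstream start of HOXA10 is chr7:27179812-27180111, both on the minus strand. Capitals mark CG dinucleotides.
HOXC4 and HOXC5: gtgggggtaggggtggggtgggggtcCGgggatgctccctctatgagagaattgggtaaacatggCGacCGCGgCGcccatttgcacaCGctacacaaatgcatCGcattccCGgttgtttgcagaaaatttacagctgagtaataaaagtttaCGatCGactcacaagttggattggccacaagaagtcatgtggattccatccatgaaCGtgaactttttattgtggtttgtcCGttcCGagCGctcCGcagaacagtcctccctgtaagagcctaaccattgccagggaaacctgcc
HOXA13: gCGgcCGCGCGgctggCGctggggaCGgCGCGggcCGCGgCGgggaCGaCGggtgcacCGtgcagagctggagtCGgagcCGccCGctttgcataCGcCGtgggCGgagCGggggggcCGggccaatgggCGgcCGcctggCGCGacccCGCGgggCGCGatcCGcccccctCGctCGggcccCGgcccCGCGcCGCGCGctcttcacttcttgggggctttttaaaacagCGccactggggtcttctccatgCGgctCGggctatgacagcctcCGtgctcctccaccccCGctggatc
HOXA10: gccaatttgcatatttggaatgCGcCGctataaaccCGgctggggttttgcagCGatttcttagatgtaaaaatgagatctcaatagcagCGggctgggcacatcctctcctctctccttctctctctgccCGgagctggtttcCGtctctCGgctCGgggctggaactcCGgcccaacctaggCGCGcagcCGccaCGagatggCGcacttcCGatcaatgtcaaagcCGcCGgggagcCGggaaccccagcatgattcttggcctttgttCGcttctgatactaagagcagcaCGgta
The shared HOXC4 and HOXC5 window held 15 CG dinucleotides, close to the median of 14 over all 35116 windows of the table. That of HOXA13 held 44, the highest count among the HOX windows, whose median was 22, and that of HOXA10 held 21. Motifs were searched on both strands. The TATA box TATAAA was in the HOXA10 window and in 5 of the 27 HOX windows (18.5%), against 11.5% of all windows. The cyclic AMP response element TGACGTCA was in 0 of the 27 HOX windows and in 1.85% of all windows, and the nuclear receptor hexamer AGGTCA in 0 and in 13.8%. The HOX-PBX motif TGATTNAT was in 2 HOX windows, those of HOXA2 and HOXD11, and in 2.82% of all windows. These are matches of letters and do not show binding.

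The HOX genes that these cells used most belonged to HOXB. To compare genes, levels were divided by the length of the canonical transcript and are given as CPM per kb in the empty-vector libraries (mean ± SD, n = 4). On this length HOXB6 was highest at 30.1 ± 1.74 CPM per kb, and its 4 libraries lay above those of every other HOX gene. HOXB7 at 20.4 ± 0.670 and HOXB9 at 19.6 ± 0.828 CPM per kb followed and overlapped each other. HOXB3 (10.8 ± 0.807), HOXB5 (9.32 ± 0.869), HOXA10 (8.78 ± 1.24), HOXA3 (7.96 ± 0.762) and HOXB2 (7.15 ± 0.565 CPM per kb) each overlapped the next in that order. HOXA5 at 4.15 ± 0.418 and HOXA6 at 2.86 ± 0.177 CPM per kb completed the 10 highest. With the union of annotated exons as the length, the same 10 genes came first in another order: HOXB9 (19.6), HOXB6 (19.4) and HOXB7 (18.3 CPM per kb) were then close together, and HOXB3 was at 4.78 CPM per kb, below HOXB5, HOXA10, HOXA3 and HOXB2. Below them stood HOXC4 at 2.08 ± 0.445 CPM per kb, and the remaining tested members lay between 0.200 and 1.62 CPM per kb.

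Several members, most of them posterior, were at or near 0 counts. HOXB1, HOXC12 and HOXD13 had 0 counts in all 8 libraries, which allows up to 3 counts in each. HOXB13 had 3 counts in 1 ADRA2A library and 0 in the other 7. HOXC11 and HOXC13 had at most 2 counts in any library, HOXD8 at most 1 and HOXD12 at most 5. At position 13, the tail end, HOXA13 alone of the 4 paralogues passed the filter on low counts.

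**Figure D1:**
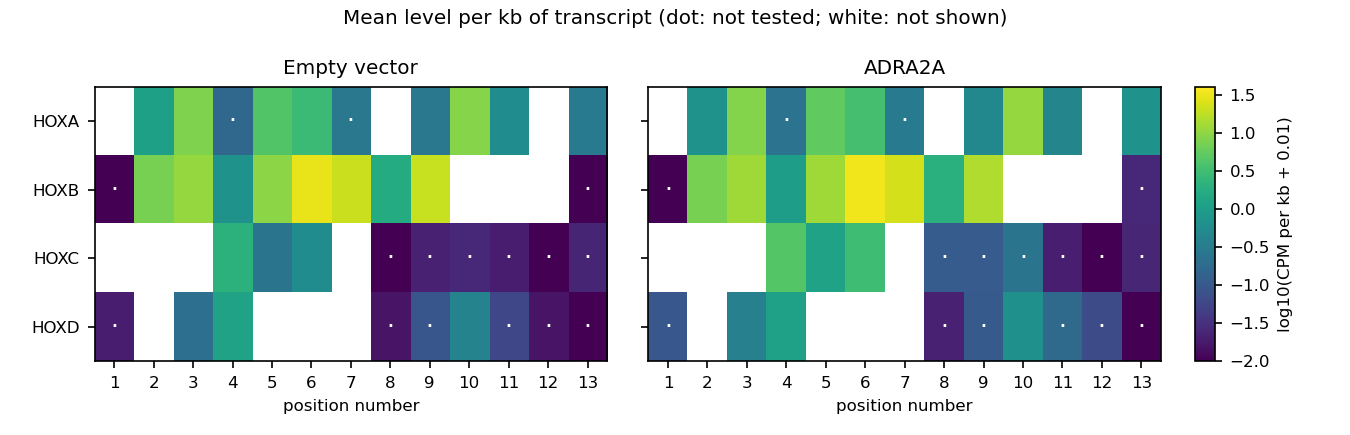
Mean level per kb of canonical transcript in each group (colour, log10 of CPM per kb with 0.01 added) by cluster (rows) and position number (columns). HOXB6 is brightest in both groups, and HOXC4, HOXC5 and HOXC6 are among the members that are brighter with ADRA2A. A dot marks members that were not tested, and white marks positions that are not shown, mostly because the cluster has no gene there.

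Of the 39 members, 23 passed the filter on low counts (edgeR filterByExpr) and were tested against the empty vector. Log2 differences (log2 fold changes) are of the ADRA2A over the empty-vector libraries from edgeR's quasi-likelihood test, with Benjamini-Hochberg adjusted p-values over all 14785 genes tested and a threshold of 0.05. By this rule 10 HOX genes rose and 1 fell, so that 47.8% of the 23 were called against 42.7% of all genes tested, a share near the background. Higher calls made up 43.5% of the HOX genes tested and 21.6% of all genes, and lower calls 4.35% and 21.1%. Groups did not overlap in 9 members (39.1%), against 39.2% of all genes, so that this share too was near the background. The median log2 difference was 0.28 over the tested members and 0.00 over all genes tested. HOXC5 and HOXD3 reached the level of the filter in all 4 ADRA2A libraries and in 1 empty-vector library. HOXA9 and HOXD10 passed mainly through the ADRA2A libraries, so these counts and medians are a description of the members that passed and not of all 39. By position, 1 of 6 tested anterior genes (positions 1 to 3) rose, 7 of 11 central genes (4 to 8) rose, and of 6 posterior genes (9 to 13) 2 rose and 1 fell.

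**Figure D2:**
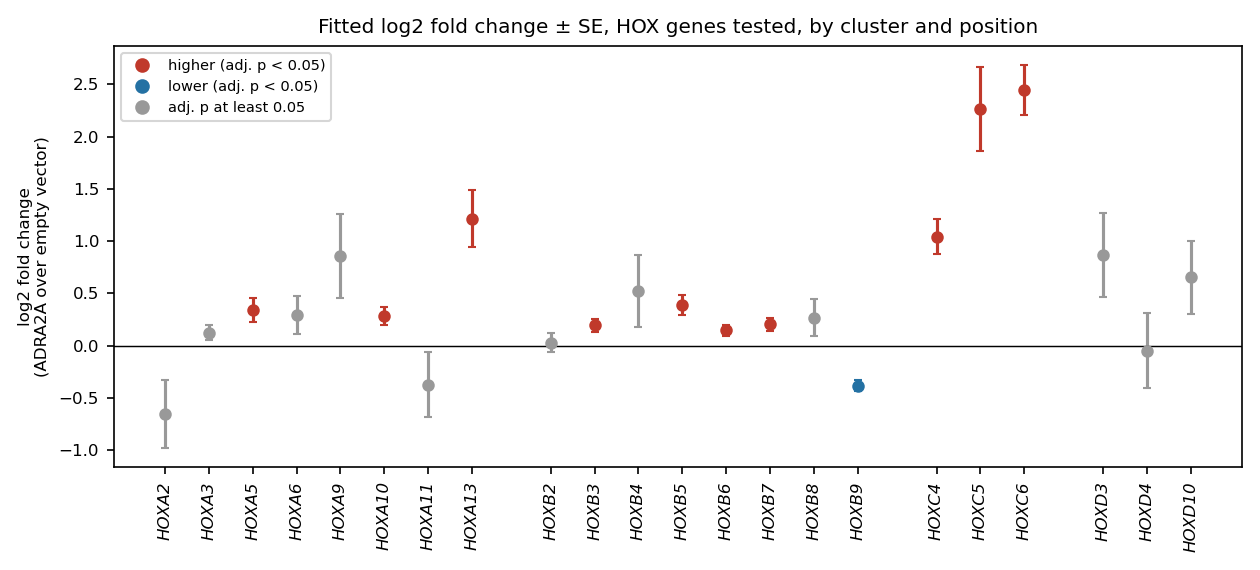
Fitted log2 fold change ± SE (vertical axis) of 22 tested HOX genes, ordered by cluster and position. The 3 HOXC genes lie at 1.04 or above, HOXA13 at 1.21, and HOXB9 is the single gene called lower, at -0.38.

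Of the 4 clusters, HOXC had the highest ratio of summed levels. The summed level of its 9 members was 4.33, 4.48, 6.39 and 4.65 CPM in empty-vector libraries 1 to 4 and 16.6, 14.1, 15.7 and 14.5 CPM in ADRA2A libraries 1 to 4. All 4 ADRA2A libraries lay above all 4 empty-vector libraries, and the mean was 3.07-fold higher. HOXC took 1.84% of the summed HOX CPM with the empty vector and 5.04% with ADRA2A. All 3 of its tested members, HOXC4, HOXC5 and HOXC6, rose, where 21.6% of all genes tested were called higher. HOXC5 reached the filter level in 1 empty-vector library and in all 4 ADRA2A libraries, so its place among the 3 depended on its ADRA2A level.

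HOXC6 (ENSG00000197757.8; GRCh38 chromosome 12, 53990624 to 54030823, plus strand) is a central HOX gene. It had 0.644, 1.29, 0.930 and 0.851 CPM in the empty-vector libraries and 5.74, 3.70, 5.55 and 5.25 CPM in the ADRA2A libraries. The groups did not overlap, and the lowest ADRA2A library stood well above the highest empty-vector library. The log2 difference was 2.45 ± 0.24 (SE; adjusted p by edgeR = 7.92e-08), or 5.46-fold. HOXC4 (ENSG00000198353.8; chromosome 12, 54016931 to 54056030, plus strand), whose paralogues HOXA4, HOXB4 and HOXD4 stand at the same position, had 3.22, 2.92, 4.65 and 3.40 CPM and then 8.58, 6.14, 8.47 and 6.20 CPM. Again the groups did not overlap, and the log2 difference was 1.04 ± 0.17 (SE; adjusted p by edgeR = 4.94e-05). HOXC4 and HOXC6 share 484 bases of annotated exon on the same strand, 14% of the exon bases of HOXC6 and 17.5% of those of HOXC4. A non-coding transcript on the same strand, ENSG00000273046, shares 305 exon bases with HOXC4, 305 with HOXC6 and 1084 with HOXC5. The counts of HOXC4 and HOXC6 were whole numbers in all 8 libraries. The count of HOXC6 for each count of HOXC4 was 0.273 ± 0.115 with the empty vector and 0.693 ± 0.106 with ADRA2A (SD, n = 4 each), and this within-library ratio did not overlap between the groups.

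HOXC5 (ENSG00000172789.3; chromosome 12, 54033050 to 54035361, plus strand), which lies within the span of HOXC4, had 0.351, 0.136, 0.697 and 0.327 CPM in the empty-vector libraries and 1.45, 2.38, 1.15 and 2.59 CPM in the ADRA2A libraries. Its log2 difference was 2.26 ± 0.40 (SE; adjusted p by edgeR = 0.000123), and it entered the test mainly through the ADRA2A libraries. The estimated counts of HOXC5 had decimals in 4 libraries. They summed to whole counts in all 8 libraries together with AC012531.2 and AC012531.3, which overlap exons of HOXC5 on the same strand, so the division of reads between the 3 is an estimate. Their joint counts were 11, 10, 12 and 5 with the empty vector and 21, 45, 29 and 41 with ADRA2A, and did not overlap. Fitted as 1 row, they gave a log2 difference of 1.86 ± 0.33 (SE; adjusted p by edgeR = 0.000118), smaller than for HOXC5 alone.

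The other HOXC genes were too low for the filter. HOXC10, a posterior gene, had 1, 1, 0 and 0 counts with the empty vector and 5, 12, 5 and 7 with ADRA2A. Its pooled ratio after scaling was 14.8, with an exact 95% interval from 3.75 to 128 that covers counting error only. HOXC8 had 0 counts in all 4 empty-vector libraries and 5, 8, 2 and 0 with ADRA2A, so 1 ADRA2A library was at 0 like the empty vector. HOXC9 had 1 count in all with the empty vector and 9 with ADRA2A. In the fit without a filter on low counts, in which 13.2% of 25002 genes were called higher, HOXC8 (adjusted p by edgeR = 0.00323) and HOXC10 (adjusted p = 0.000980) were called higher and HOXC9 was not (adjusted p = 0.133). HOXC11 and HOXC13 had 2 counts in all in each group.

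**Figure D3:**
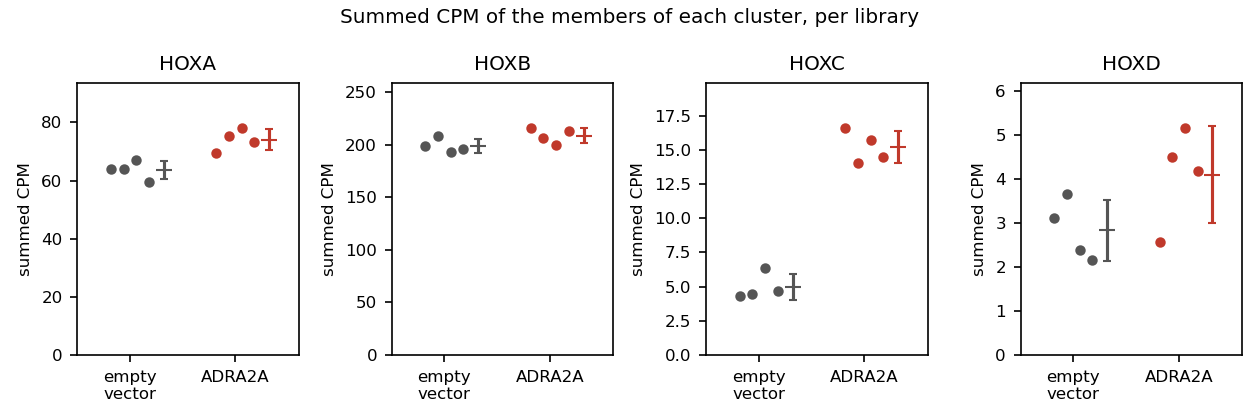
Summed TMM-scaled CPM of all members of each cluster (vertical axis, from 0) for the 4 empty-vector and 4 ADRA2A libraries (points), with mean ± SD. HOXC and HOXA do not overlap between the groups, with means of 4.96 and 15.2 CPM for HOXC and 63.6 and 74.0 CPM for HOXA, while HOXB and HOXD overlap.

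In HOXA, 3 of 9 tested members rose and 0 fell, so that 33.3% were called against 42.7% of all genes tested. By edgeR 1 gene had an unadjusted p under 0.05 with a negative value, and DESeq2 and limma voom also called 0 lower. The summed level was 63.6 ± 3.17 CPM with the empty vector and 74.0 ± 3.61 CPM with ADRA2A (SD, n = 4 each), 1.16-fold higher and without overlap. The clearest difference was at the tail end of the cluster. HOXA13 (ENSG00000106031.8; chromosome 7, 27193503 to 27200091, minus strand), a gene of limb and hindgut development, had 0.761, 2.04, 1.92 and 1.24 CPM in the empty-vector libraries and 3.18, 3.56, 4.47 and 2.53 CPM in the ADRA2A libraries. Each ADRA2A library was above each empty-vector library, and the log2 difference was 1.21 ± 0.27 (SE; adjusted p by edgeR = 0.00124), or 2.32-fold. Over the alternatives in which it was tested, the log2 fold change of HOXA13 lay between 0.99 and 1.39 and its adjusted p reached at most 0.00836.

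HOXA10 and HOXA5 rose by less. HOXA10 (ENSG00000253293.5; chromosome 7, 27170605 to 27180261, minus strand), the most abundant HOXA gene per kb, had 22.5, 20.4, 26.7 and 19.7 CPM with the empty vector and 25.3, 30.0, 26.6 and 26.8 CPM with ADRA2A. Empty-vector library 3 overlapped the ADRA2A libraries. The log2 difference was 0.28 ± 0.09 (SE; adjusted p by edgeR = 0.0127), and without empty-vector replicate 4 the call was lost (adjusted p = 0.0532). HOXA5 (ENSG00000106004.5; chromosome 7, 27141052 to 27143681, minus strand), a gene of lung and gut patterning, had 6.97, 7.13, 5.98 and 7.66 CPM and then 8.72, 8.31, 9.56 and 8.35 CPM, with no overlap. Its log2 difference was 0.34 ± 0.11 (SE; adjusted p by edgeR = 0.0207). The call of HOXA5 was lost without empty-vector replicate 3 (adjusted p = 0.0729) and without ADRA2A replicate 3 (adjusted p = 0.0723).

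The other HOXA members described here did not pass the threshold. HOXA2, an anterior gene, had 1.87 ± 0.732 CPM with the empty vector and 1.18 ± 0.410 CPM with ADRA2A (SD, n = 4 each; log2 difference -0.65 ± 0.32, SE; adjusted p by edgeR = 0.111). Its libraries overlapped, and it was called lower without empty-vector replicate 2 (adjusted p = 0.0478). HOXA3, among the more abundant members, had 24.1 ± 2.31 and 26.2 ± 1.37 CPM (adjusted p = 0.190). HOXA6 had 2.83 ± 0.175 and 3.46 ± 0.379 CPM without overlap, at an adjusted p of 0.202. HOXA9 had 0.544 ± 0.268 and 0.977 ± 0.414 CPM (adjusted p = 0.0975) and was called higher without empty-vector replicate 1 (adjusted p = 0.0424). Reads of HOXA9 and HOXA10 were divided with the readthrough transcript AC004080.3 in 3 libraries, and the 3 fitted as 1 row gave 0.30 ± 0.08 (SE; adjusted p = 0.00688). HOXA11 had 1.48 ± 0.303 and 1.13 ± 0.426 CPM (adjusted p = 0.352). HOXA4, with between 0 and 10 counts per library, and HOXA7, with between 3 and 19, were not tested.

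HOXB held most of the HOX transcripts, 73.6% of the summed HOX CPM with the empty vector and 69.1% with ADRA2A. Its sum was 199 ± 6.83 CPM and 209 ± 7.42 CPM (SD, n = 4 each), and the groups overlapped. Of 8 tested members 4 rose and 1 fell (62.5% called against 42.7% of all genes tested). The gene that fell was HOXB9 (ENSG00000170689.10; chromosome 17, 48621156 to 48626358, minus strand), the posterior gene at the tail end of the expressed block. It had 48.5, 52.9, 52.2 and 49.3 CPM in the empty-vector libraries and 41.0, 35.3, 39.6 and 39.7 CPM in the ADRA2A libraries. The groups did not overlap, with a log2 difference of -0.38 ± 0.06 (SE; adjusted p by edgeR = 1.37e-05), which is 0.767 of the empty-vector level. It was called lower under every alternative that was run, with a highest adjusted p of 9.81e-05.

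HOXB7, an abundant neighbour of HOXB9, went the other way. HOXB7 (ENSG00000260027.4; chromosome 17, 48607232 to 48633572, minus strand) had 27.6, 27.8, 29.0 and 26.8 CPM with the empty vector and 34.0, 31.7, 30.9 and 31.5 CPM with ADRA2A, without overlap (log2 difference 0.20 ± 0.06, SE; adjusted p by edgeR = 0.00880). A ratio of both genes within a library does not depend on depth or scaling. HOXB9 had 1.76, 1.91, 1.80 and 1.84 counts for each count of HOXB7 in the empty-vector libraries and 1.21, 1.11, 1.28 and 1.26 in the ADRA2A libraries. HOXB8, whose annotated span lies within that of HOXB7, as does that of HOXB9, had 3.52 ± 0.685 and 4.22 ± 0.402 CPM (SD, n = 4 each) and did not pass (adjusted p = 0.242).

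HOXB5 (ENSG00000120075.5; chromosome 17, 48591257 to 48593779, minus strand) had the largest log2 difference among the HOXB genes called. It had 19.2, 18.1, 15.9 and 16.1 CPM with the empty vector and 20.4, 25.5, 19.5 and 25.4 CPM with ADRA2A. The groups did not overlap, although ADRA2A libraries 1 and 3 came close to the empty-vector range (log2 difference 0.39 ± 0.10, SE; adjusted p by edgeR = 0.00265). HOXB3 and HOXB6 share 433 bases of annotated exon, and their estimated counts had decimals in all 8 libraries that summed to whole counts for the pair. HOXB3 (chromosome 17, 48548870 to 48604912) had 35.5 ± 2.67 and 40.6 ± 2.42 CPM (log2 difference 0.20 ± 0.06, SE; adjusted p = 0.0166), and HOXB6 (48595751 to 48604992) had 50.5 ± 2.92 and 55.8 ± 2.63 CPM (0.14 ± 0.05, SE; adjusted p = 0.0335). Libraries of the groups overlapped in both genes. As 1 row the pair had 86 ± 5.53 and 96.4 ± 4.89 CPM (SD, n = 4 each; 0.17 ± 0.05, SE; adjusted p = 0.0117).

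Both calls depended on single libraries. That of HOXB3 was lost without empty-vector replicate 3 (adjusted p = 0.0697) and without ADRA2A replicate 1 (0.0601). That of HOXB6 was lost without empty-vector replicate 1 (0.0793) or 3 (0.118), without ADRA2A replicate 1 (0.116) or 4 (0.0590), with DESeq2 (0.0518) and with upper quartile factors (0.0580). HOXB2, an anterior gene, had 12.03 ± 0.951 and 12.3 ± 0.838 CPM, with a log2 difference of 0.03 ± 0.09 (SE; adjusted p by edgeR = 0.845). HOXB4 had 1.40 ± 0.612 and 2.02 ± 0.863 CPM (adjusted p = 0.239).

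**Figure D4:**
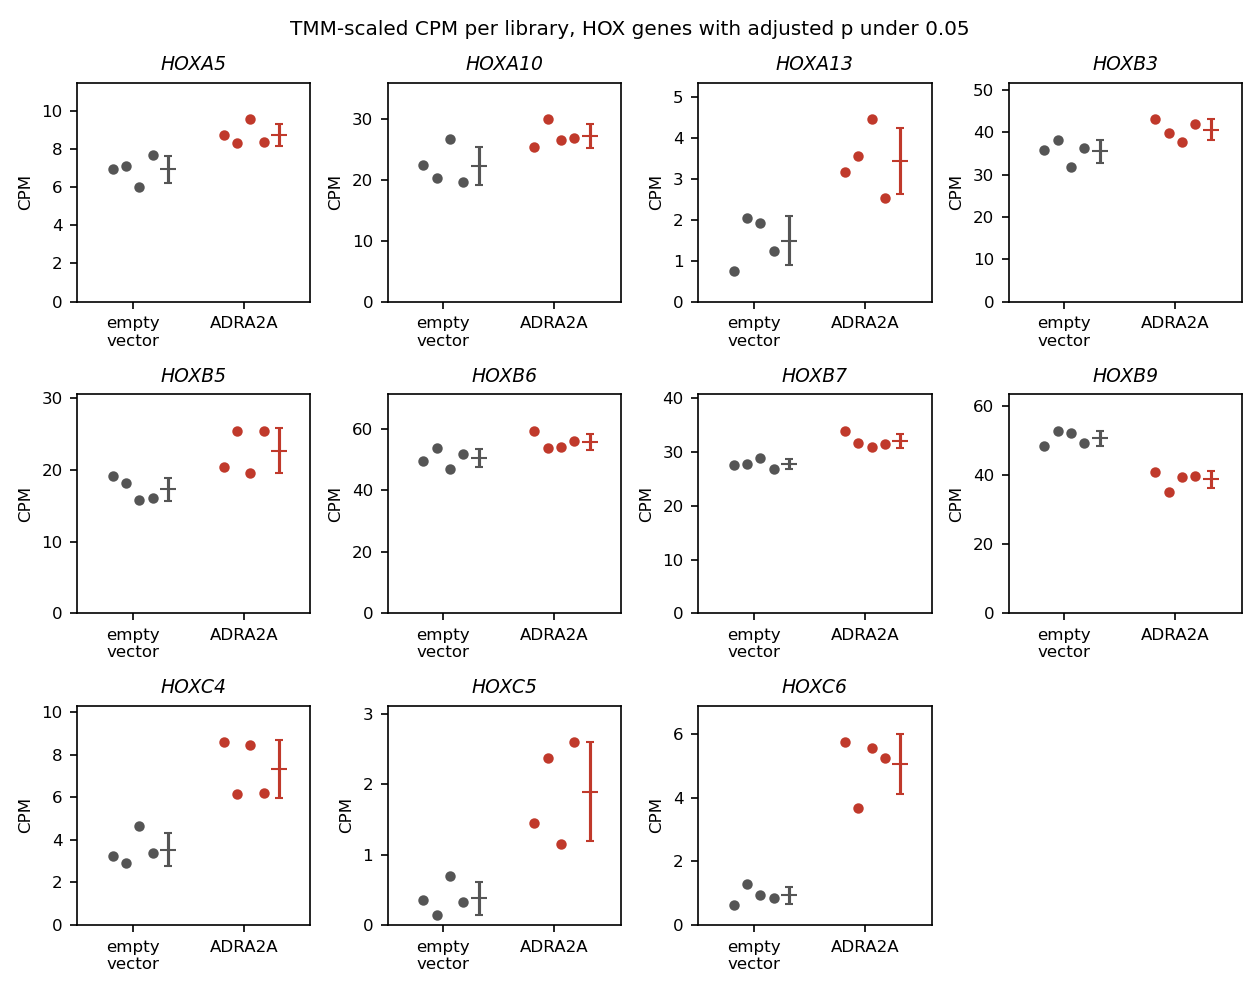
TMM-scaled CPM (vertical axis, from 0) of the 11 HOX genes with an adjusted p under 0.05, for the 4 empty-vector and 4 ADRA2A libraries (points), with mean ± SD beside them. HOXC6 rises from a mean of 0.929 to 5.06 CPM, HOXB9 is the gene whose ADRA2A points lie below, and HOXA10, HOXB3 and HOXB6 overlap between the groups.

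HOXD was low, and 0 of its 3 tested members were called by edgeR, by DESeq2 or by limma voom. With edgeR, 42.7% of all genes tested were called, and 1 of the 3, HOXD3, had an unadjusted p under 0.05. Its sum was 2.83 ± 0.688 CPM with the empty vector and 4.09 ± 1.10 CPM with ADRA2A (SD, n = 4 each), with overlap. HOXD10 had 0.704 ± 0.323 and 1.12 ± 0.249 CPM (log2 difference 0.65 ± 0.35, SE; adjusted p by edgeR = 0.142). It shares 452 bases of annotated exon with HOXD11, and counts with decimals in 3 libraries summed to whole counts for the pair. Joint counts of HOXD10 and HOXD11 were 10, 8, 19 and 14 with the empty vector and 15, 19, 36 and 20 with ADRA2A. They overlapped, and the row passed the threshold narrowly (0.84 ± 0.33, SE; adjusted p = 0.0452). HOXD3 had 0.489 ± 0.295 and 0.881 ± 0.200 CPM (0.86 ± 0.40, SE; adjusted p = 0.0913) and was called higher without empty-vector replicate 2 (adjusted p = 0.0269). HOXD4 had 1.35 ± 0.649 and 1.30 ± 0.584 CPM (adjusted p = 0.931). Reads of HOXD3 and HOXD4 were divided with AC009336.2, and the 3 as 1 row gave 0.15 ± 0.27 (SE; adjusted p = 0.685). HOXD1 had 1 count in all with the empty vector and 10 with ADRA2A. HOXD9 had 10 and 12, HOXD11 had 5 and 19, and HOXD12 had 1 and 9. These genes did not pass the filter. The fit without a filter called none of them (adjusted p by edgeR = 0.0994, 0.867, 0.155 and 0.132, in that order). Pooled ratios, with exact intervals as for HOXC10, were 10.2 (1.45 to 444) for HOXD1 and 3.89 (1.40 to 13.3) for HOXD11. They were 9.20 (1.28 to 403) for HOXD12 and 1.23 (0.486 to 3.17) for HOXD9. The intervals cover counting error only.

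Genes beside the clusters moved as well. Among protein-coding genes within 1 Mb of HOXC, 31 were tested, of which 17 rose and 2 fell (61.3% called against 42.7% of all genes), and a median log2 difference of 0.17, the values lying between -0.51 and 1.70. The nearest tested genes were CALCOCO1, before the cluster at -211 kb, with 0.49 ± 0.09 (SE; adjusted p by edgeR = 0.000213), and SMUG1, 65.2 kb after it, with 0.03 ± 0.08 (adjusted p = 0.796). HOXC5 and HOXC6 were above all 31 of these genes, and HOXC4 was above 29 of them, below NFE2 (1.05) and ITGA5 (1.70). Around HOXB 8 of 28 genes rose and 5 fell (46.4% called), with a median of 0.10. Its nearest neighbours were SKAP1 at -1.59 ± 0.11 and TTLL6 at 1.56 ± 0.31 (SE; adjusted p by edgeR = 1.11e-09 and 0.000443). TTLL6 was low, with a mean of 0.611 CPM with the empty vector, under the filter level of 0.645 CPM, and 1.80 CPM with ADRA2A. Around HOXA 3 of 8 rose and 3 fell (75% called), with a median of -0.06. Around HOXD 2 of 4 rose and 0 fell (50% called), with a median of 0.13. The part of such regional shifts in the HOX values was not tested.

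**Figure D5:**
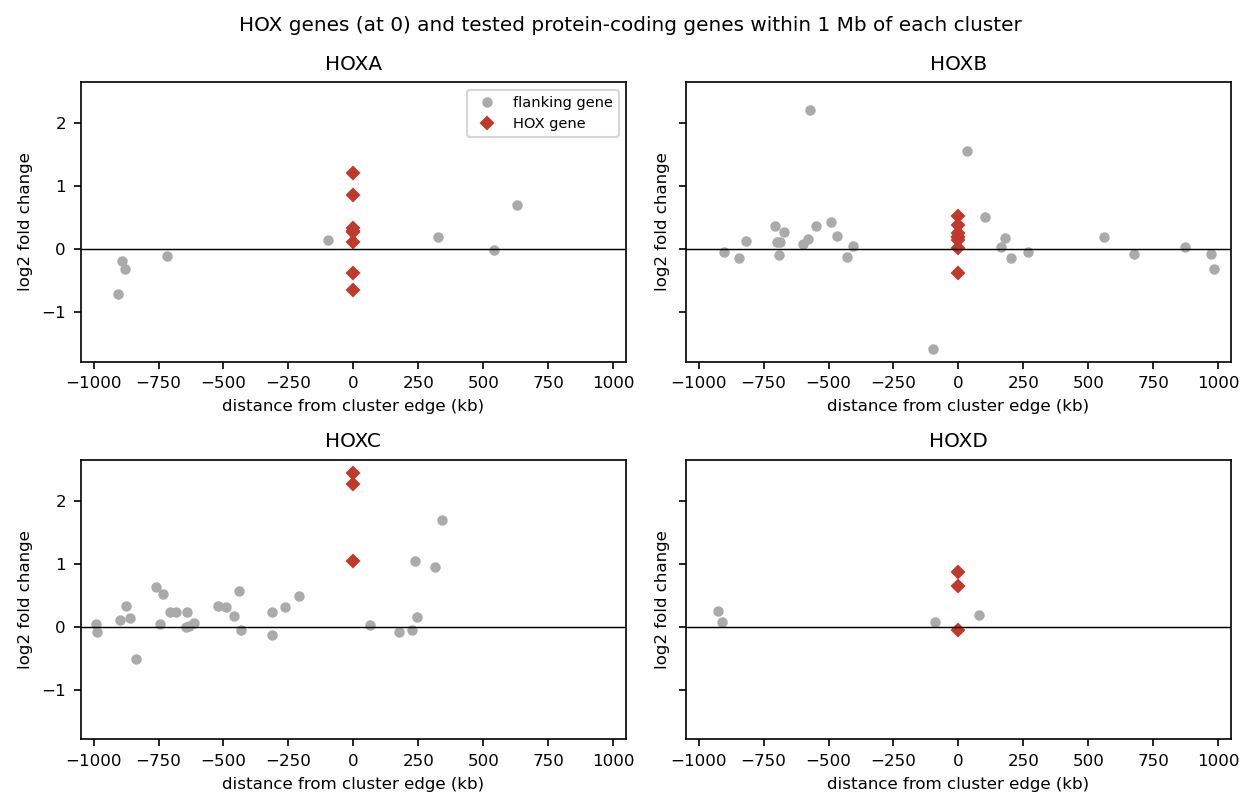
Log2 fold change (vertical axis) of tested HOX genes that are reported (diamonds, at 0) and of tested protein-coding genes within 1 Mb of each cluster, by distance from the cluster edge in kb. The 3 HOXC genes lie above most of their 31 neighbours, whose median is 0.17, while HOXB members lie between neighbours at -1.59 and 2.22.

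Of 9 genes for cofactors of HOX proteins 7 were tested, 3 rose, and 42.9% were called against 42.7% of all genes, a share near the background. MEIS1, a homeodomain cofactor that binds with PBX and HOX proteins, had 22.7, 23.1, 21.1 and 23.4 CPM with the empty vector and 48.6, 40.6, 39.3 and 50.03 CPM with ADRA2A. The groups were far apart, with a log2 difference of 0.99 ± 0.08 (SE; adjusted p by edgeR = 3.26e-09). MEIS2 (0.22 ± 0.05, SE; adjusted p = 0.00248) and PKNOX1 (0.21 ± 0.06, SE; adjusted p = 0.00910) rose by little. PBX2 (0.01), PBX3 (0.03) and PBX4 (-0.52; adjusted p = 0.101) did not pass, and MEIS3 and PKNOX2 had at most 2 counts and 1 count and were not tested. The list median was 0.04 against 0.00 over all genes.

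Regulators of the clusters were taken from fixed lists. Of 22 Polycomb genes, all tested, 6 rose and 5 fell (50% called against 42.7% of all genes), with a median of 0.02. EZH2, the main histone methyltransferase of the complex, fell (-0.20 ± 0.04, SE; adjusted p by edgeR = 0.000493), EZH1, its paralogue, rose (0.36 ± 0.06, SE; adjusted p = 5.00e-05), and JARID2, which recruits the complex, fell (-0.56 ± 0.07, SE; adjusted p = 4.31e-06). Of 15 Trithorax and menin genes 2 rose and 2 fell (26.7%), with a median of 0.05. KMT2A was at 0.05 ± 0.07 (adjusted p = 0.557) and MEN1 at 0.04 ± 0.05 (adjusted p = 0.602). Of 18 retinoid genes 13 were tested, 8 rose and 2 fell (76.9%), with a median of 0.18. ALDH1A2, an enzyme that makes retinoic acid, rose at low abundance from 0.772 ± 0.202 to 3.97 ± 0.484 CPM (SD, n = 4 each; adjusted p by edgeR = 1.62e-07), whereas the more abundant ALDH1A3, with the same activity, fell from 663 ± 28.7 to 366 ± 9.27 CPM (adjusted p = 2.60e-13).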

How the data were processed

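RNA was extracted with TRIzol and run on a NextSeq instrument (per the labels' protocols). The authors deposited 1 table of RSEM estimated counts per gene for all 8 libraries, not scaled between them. The submitters' processing notes list cutadapt, STAR, RSEM and DESeq2 without versions or order, and the build hg38. The annotation release, strand use and read length are not given in the sources used here, so reads of a gene and its antisense partner cannot be told apart. RSEM divides reads that fit several genes, and 10 of the 39 members had decimals. Groups of genes whose decimals summed to whole counts within 0.02 were also fitted as 1 row, an alternative chosen after seeing the data.

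Estimated counts were rounded. Genes were kept by filterByExpr (minimum count 10), scaled with TMM factors and tested with edgeR 4.0.16 (glmQLFit, glmQLFTest; R 4.3.3) on all 8 libraries with the group as single term. The script was tested on simulated data. The SE is the absolute log2 fold change divided by the square root of F. Sums and levels over clusters were described without a test. Positions and lengths come from GENCODE release 44, which matched 99.4% of the genes. Alternatives were DESeq2 1.42.0, limma 3.58.1 voom, RLE and upper quartile factors, no filter, a replicate block, a mean of at least 50 counts, and the removal of each library in turn. Some results are not reported here. Called members are given per library, other tested members by group, and other genes come from fixed lists (cofactors, Polycomb, Trithorax and menin, retinoid, ParaHox, non-coding HOX transcripts, cell type markers) or lie within 1 Mb. Single flanking genes and ratios of genes were chosen after their values were seen. The members and lists were chosen with earlier results of these data known. With between 14427035 and 17528915 counts per library, a count of 0 allows 3 counts, and intervals and floors cover counting error only.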

Additional observations from a re-analysis of the deposited data

Results flagged for a closer look

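The summed HOXC level of empty-vector replicate 3 stood apart from the other 3 empty-vector libraries. It was 6.39 CPM, where the others had 4.33, 4.48 and 4.65 CPM. It was the single library to do so among 56 sets of 4 libraries that were examined (each tested member, each cluster sum and the sum of all HOX genes in each group). Chance gives about 1 in 20, so that 1 of 56 is no more than chance gives. HOXC4 made most of it, with 4.65 CPM in that library. The log2 ratio of the HOXC sums was 1.62, and without this library it was 1.76.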

How the results depend on the processing

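Of 23 tested members, 10 were called higher and 1 lower. Higher calls numbered 9 with DESeq2, 10 with RLE factors, 9 with upper quartile factors, 10 with voom, 12 of 36 without a filter, and 7 of 12 at a mean of at least 50 counts, where HOXA13, HOXC5 and HOXC6 were not tested. They numbered 7 to 11 across the fits that left out each library, and lower calls 1 to 3, the highest without empty-vector replicate 2. Counts over all genes were 6314, and 5703 to 6042 when a library was left out. HOXC4, HOXC5, HOXC6, HOXA13, HOXB5, HOXB7 and HOXB9 kept their call in every fit that tested them. Fold changes near 0 changed sign: HOXB2 was -0.0160 without empty-vector replicate 4 (0.0744 at the highest, without empty-vector replicate 3), and HOXD4 was 0.04, 0.26 and 0.17 without empty-vector replicate 1, empty-vector replicate 2 and ADRA2A replicate 1, and 0.15 as a row joined with HOXD3 (-0.34 at the lowest, without ADRA2A replicate 2). The log2 ratio of cluster sums with each library left out lay between 0.19 and 0.25 for HOXA, 0.05 and 0.09 for HOXB, 1.56 and 1.76 for HOXC, and 0.40 and 0.70 for HOXD. Same-numbered libraries did not vary together (correlations of their deviations between -0.04 and 0.07, with 1 of 4 highest for its own number), and the replicate block gave 10 higher and 1 lower HOX calls and 6400 calls over all genes. No scaling moved the median of all genes by more than 0.02.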

Other observations

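Of 24 listed non-coding transcripts of the clusters, 23 were in the table. Of these, 10 had 0 counts in all libraries, among them the listed microRNA genes, and 4 were tested, of which 2 rose and 0 fell (50% called against 42.7% of all genes; median log2 fold change 0.34). HAGLR, an antisense transcript of the HOXD cluster, had 4, 4, 6 and 3 counts with the empty vector and 20, 19, 33 and 29 with ADRA2A, without overlap (2.56 ± 0.35, SE; adjusted p by edgeR = 7.24e-06). Its empty-vector libraries lay between 0.196 and 0.349 CPM, under the filter level of 0.645 CPM. HAGLR therefore entered the test through its ADRA2A libraries, and its call and the share of this list depend on that. HOXA-AS2 rose from 10.1 ± 1.27 to 12.9 ± 1.16 CPM (SD, n = 4 each; adjusted p by edgeR = 0.0115), and HOXA-AS3 (0.392) and HOXB-AS1 (0.889) did not pass. HOTTIP, beside HOXA13, had 1, 1, 0 and 0 counts and then 3, 9, 2 and 3, and HOXC-AS2 had 0, 0, 0 and 2 and then 2, 8, 12 and 2. Both were too low to be tested. Since strand use is not given, reads of these transcripts and of the HOX genes they overlap cannot be told apart.

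Of 10 ParaHox and related homeobox genes, 4 had 0 counts in all libraries and only 2 were tested. Both rose, where 42.7% of all genes tested were called and 21.6% were called higher. CDX2, an intestinal homeodomain factor, had 1.82, 2.92, 1.57 and 1.77 CPM with the empty vector and 5.33, 5.94, 5.73 and 5.69 CPM with ADRA2A, without overlap (1.5 ± 0.19, SE; adjusted p by edgeR = 2.95e-06). PDX1, a pancreatic and duodenal factor, rose from 3.36 ± 0.382 to 4.70 ± 0.994 CPM (SD, n = 4 each; adjusted p by edgeR = 0.0363).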
